A study of Oryza sativa with 20 samples.

Results

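The beta-expansin genes EXPB9, EXPB10 and EXPB3 of rice were followed through pollination. They were chosen by name: every probe set annotated to one of these symbols was taken, which gave 3 probe sets of the 57381 on the array, 1 for each gene. Of the 29 expansin superfamily genes with a probe set here, 11 are beta-expansins, and these 3 are among them. Their gene identifiers are LOC4349301 for EXPB9, LOC4331325 for EXPB10 and LOC4349349 for EXPB3. All 3 passed the filter on dim probe sets, which kept those that exceeded the median of the array on 2 or more arrays.

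Expansins are small secreted proteins that loosen plant cell walls without cutting their polymers, which lets the wall extend. The beta-expansins are a branch that is large in grasses, and the group-1 grass pollen allergens belong to it: pollen releases them in quantity, and in maize they soften the stigma and style walls through which the pollen tube grows. EXPB9 and EXPB10 are counted with this pollen allergen type, whereas EXPB3 belongs to the vegetative type, known in rice from growing internodes and roots.

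Transcript levels were measured in total RNA of field-grown rice flowers on 20 Affymetrix rice arrays, 1 sample each. The 7 groups were stigma 5 min after pollination (n = 2), unpollinated stigma (n = 3), ovary 5 min after pollination (n = 3), unpollinated ovary (n = 3), and whole pistils collected at 3 later stages (n = 3 each), 15 to 25 min, then 40 to 50 min, then 5 to 7 h after pollen was applied. The labels tie the whole-pistil stages to pollen tube growth, fertilization and zygote formation. They also state that pollen grains are included in what was collected after pollination.

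Pollen RNA and pistil RNA therefore cannot be told apart in the pollinated groups, and in such bulk samples fewer cells of a type cannot be told apart from less RNA per cell. Replicates are called biological, but nothing says that they came from separate plants, so a p-value here speaks for the spread among these samples alone. The values are relative intensities on a linear scale, with each array's 75th percentile at 1. Array medians lay between 0.195 and 0.377, and arrays of 1 group correlated at r = 0.937 to 0.988 across the tested probe sets. The number of arrays limits the precision. Levels compare within a probe set across arrays, not between probe sets.

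The 5-min stigma replicate 2 stood apart from the other stigma arrays in markers of the ovule. MADS13, an ovule identity gene, read 0.972 and 3.66 in 5-min stigma replicates 1 and 2, against 1.13 to 2.11 in unpollinated stigma and 16.2 to 18.9 in unpollinated ovary. MADS29, a nucellus gene, read 0.134 and 1.27 in those 2 arrays, against 0.123 to 0.157 in unpollinated stigma and 2.59 to 3.37 in unpollinated ovary. The summed level of the nucellus and early endosperm list (2 of 2 genes with a probe set) was 0.428 and 1.65 in 5-min stigma, against 0.437 to 0.477 in unpollinated stigma. The carpel and ovule list had a probe set for 5 of 5 genes. Its summed level was 57.5 to 64 in 5-min stigma and 83.2 to 99.8 in unpollinated stigma. Most of this sum was MADS58, at 38.6 to 47.1 and 54.8 to 78.9, so it does not speak for each gene. Changes of EXPB9, EXPB10 and EXPB3 that rest on the 5-min stigma are given with and without that array.

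Within 5 min of pollination EXPB9 was strongly higher in both tissues, EXPB10 was higher in the stigma, and EXPB3 was lower in the stigma. EXPB9 read 66.0 and 62.5 in 5-min stigma, against 3.83, 4.38 and 2.35 in unpollinated stigma. Both 5-min arrays were far above every unpollinated one, and the group mean of 64.2 ± 2.51 (SD, n = 2) exceeded 99.9% of the probe sets on the array, against 90% for the unpollinated mean of 3.52 ± 1.05 (SD, n = 3). The log2 change was 4.24 ± 0.80 (SE), or 18.9-fold, with an adjusted p of 0.00134 by limma. Here and below a probe set was called where limma's p, adjusted over all 35470 tested probe sets by Benjamini and Hochberg, was under 0.05. In this comparison 22% of tested probe sets were called, 8.61% higher and 13.4% lower, a split of 3054 higher and 4756 lower that became 4153 higher and 1831 lower when arrays were scaled on bright probe sets. Without 5-min stigma replicate 2 the EXPB9 change was 4.28.

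EXPB10 was brightest in 5-min stigma, where its mean exceeded 79.9% of the probe sets on the array, against 60.8% in unpollinated stigma. It read 1.86 and 0.984 in 5-min stigma, against 0.261, 0.549 and 0.446 in unpollinated stigma. Both pollinated arrays were above the unpollinated ones, but they differed from each other by more than the lower of them did from the highest unpollinated value. The change was 1.76 ± 0.41 (log2, SE), or 3.39-fold (limma, adjusted p = 0.00566). It was no longer called without 5-min stigma replicate 1 (1.3) and was 2.22 without replicate 2.

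EXPB3 ran the other way. It read 6.37 and 2.90 in 5-min stigma, against 13.7, 9.87 and 22.1 in unpollinated stigma. The groups did not overlap, and the lowest value was that of 5-min replicate 2, the array with the ovule markers and the highest median. EXPB3 fell by 1.75 ± 0.35 on the log2 scale, 3.35-fold (limma, adjusted p = 0.00188). Without 5-min replicate 2 the change was -1.18 and was no longer called, and without replicate 1 it was -2.31.

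The carpel and ovule and the stamen and lodicule lists hold 8 genes. Of these, 4 were lower on both 5-min stigma arrays than on every unpollinated one. Over all tested probe sets 13.4% were called lower in 5-min stigma. The share separated like these 4 was not counted, so 4 of 8 cannot be weighed. The carpel gene DL read 11.5 and 8.69 in 5-min stigma, against 12.9 to 21.6 in unpollinated stigma, and MADS58, which acts in carpel development, read 47.1 and 38.6 in 5-min stigma, against 54.8 to 78.9 in unpollinated stigma. MADS2 and MADS4, which specify lodicules and stamens, read 48.8 and 37.3 and 10.4 and 7.17 in 5-min stigma, against 70.7 to 86.0 and 17.5 to 21.1 in unpollinated stigma. The other 4 were not lower on both: the stamen and lodicule gene MADS16 read 34.5 and 23.0 in 5-min stigma, against 25.6 to 28.4 in unpollinated stigma, and MADS3, which acts in stamens and carpels, 4.26 and 5.52 in 5-min stigma, against 3.68 to 5.12 in unpollinated stigma. The remaining pair were the ovule genes MADS13 and MADS21, and a second gene that carries the name MADS2 also overlapped, at 6.89 and 5.57 in 5-min stigma, against 6.41 to 10.5 in unpollinated stigma. The 3 stamen and lodicule genes summed to 67.5 to 93.8 in 5-min stigma and 117 to 129 in unpollinated stigma. In unpollinated ovary the sum was 26.7 to 58.3. On every stigma array most of it was the MADS2 gene given first. The part that tissue make-up had in the fall of EXPB3 was not tested.

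**Figure D1:**
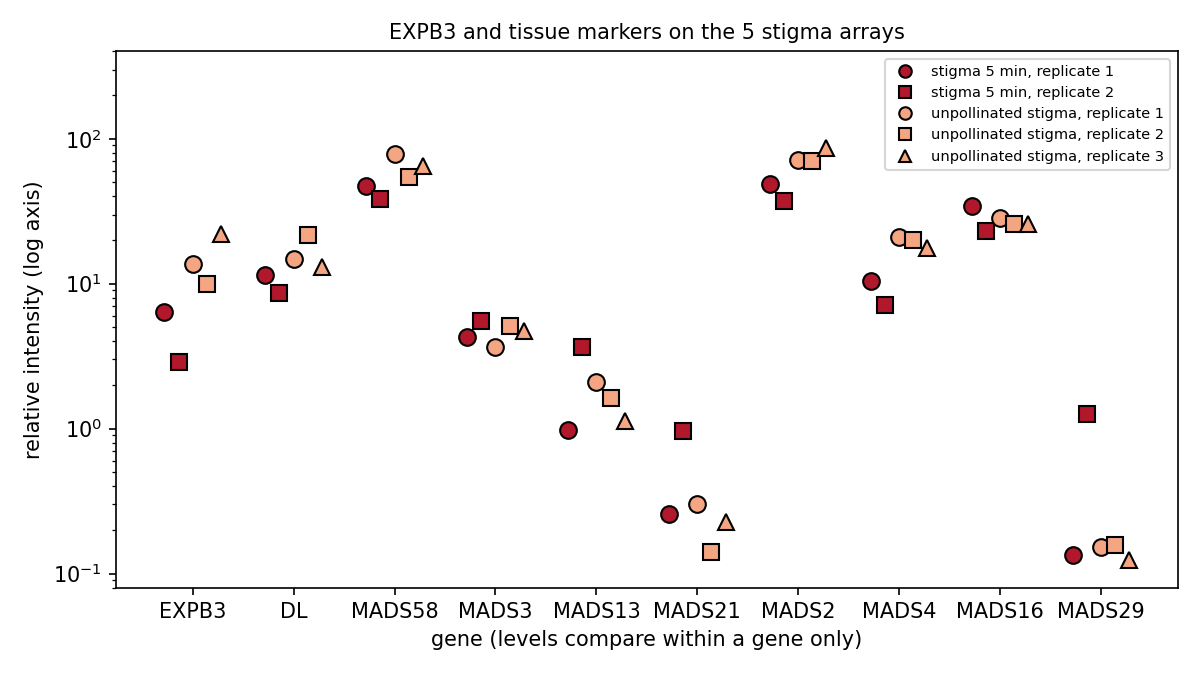
EXPB3 and 9 tissue markers on the 5 stigma arrays; the vertical axis is relative intensity on a log scale, each point is 1 array, and levels compare within a gene only. EXPB3, DL, MADS58, MADS2 and MADS4 are lower on both 5-min arrays than on every unpollinated one, MADS3 and MADS16 overlap, and MADS13, MADS21 and MADS29 are highest on 5-min replicate 2.

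In the ovary EXPB9 alone of the 3 genes was called at 5 min. It read 9.13, 19.5 and 8.12 in 5-min ovary, against 0.180, 0.328 and 0.487 in unpollinated ovary. The groups lay more than an order of magnitude apart, and the unpollinated mean was 0.332 ± 0.154 (SD, n = 3), higher than only 58.2% of probe sets. The change of 5.21 ± 0.72 (log2, SE), 37-fold, was the 8th largest rise among the 35470 tested probe sets (limma, adjusted p = 0.000411). In this comparison 5.9% of probe sets were called, 3.88% of them higher and 2.02% lower as shares of all tested.

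EXPB10 read 0.246, 0.299 and 0.282 in 5-min ovary, against 0.0843, 0.185 and 0.184 in unpollinated ovary, where 1 array lay under the floor of 0.128 to which low values were raised. The groups did not overlap, yet the change of 0.75 ± 0.37 (log2, SE) was not called (limma, adjusted p = 0.263). EXPB3 read 1.42, 1.93 and 3.13 in 5-min ovary, against 1.55, 1.37 and 1.77 in unpollinated ovary. These groups overlapped, with a change of 0.40 ± 0.31 (log2, SE) and an adjusted p of 0.544 by limma.

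**Figure D2:**
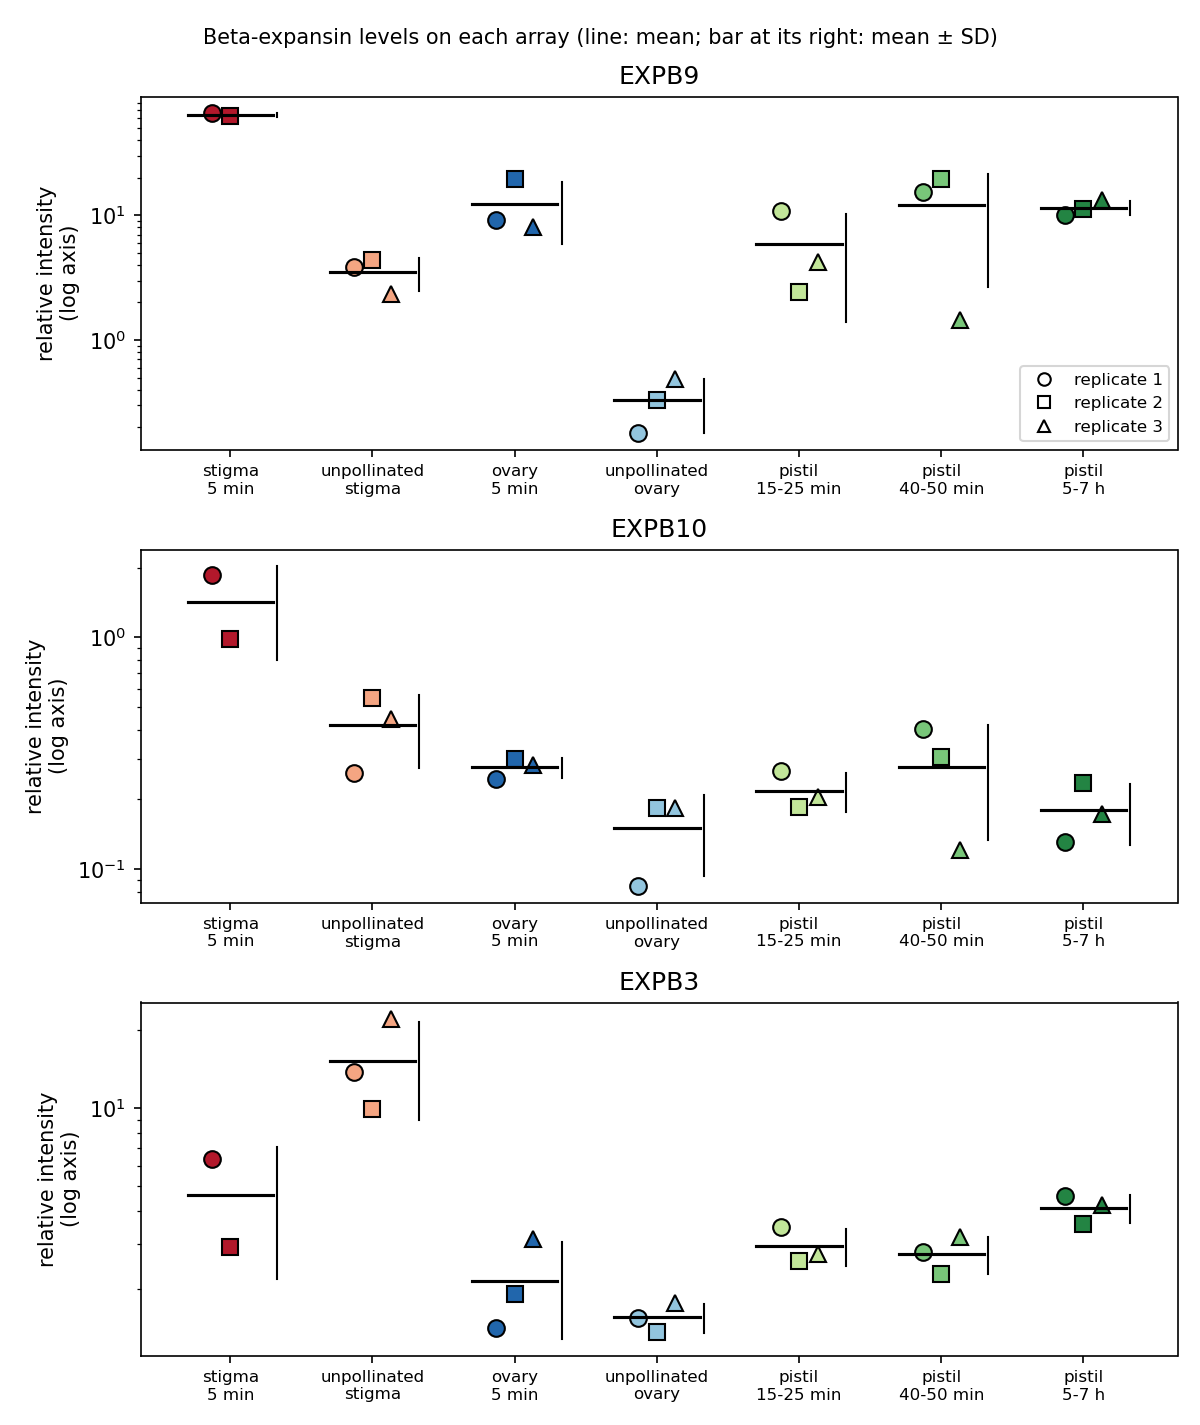
Relative intensity (log axis) of the 3 beta-expansins on each of the 20 arrays; symbols mark the replicate, the horizontal line is the group mean and the vertical bar at its right is the mean ± SD. EXPB9 and EXPB10 are highest in 5-min stigma, EXPB3 in unpollinated stigma, and EXPB9 is lowest in unpollinated ovary.

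Whether the 5-min change differed between stigma and ovary was tested as an interaction, in which 1.37% of probe sets were called, 0.897% higher and 0.476% lower. EXPB3 was called: its change in the stigma was lower than that in the ovary by 2.14 ± 0.47 on the log2 scale (-2.14; limma, adjusted p = 0.0285). That call ended when 5-min stigma replicate 2 (-1.58), 5-min ovary replicate 3 (-1.84) or unpollinated ovary replicate 2 (-2.05) was left out, and also under median centring, when dim probe sets were kept in the fit and when only the groups compared were fitted. For EXPB9 the difference between the tissues was -0.97 ± 1.08 (log2, SE; adjusted p = 0.822 by limma), with a 95% interval from -3.24 to 1.3; it was -0.93 without 5-min stigma replicate 2 and ranged from -1.30 to -0.58 with each array left out in turn. For EXPB10 it was 1.01 ± 0.56 (log2, SE; adjusted p = 0.499 by limma), with an interval from -0.16 to 2.18; it was 1.46 without 5-min stigma replicate 2 and ranged from 0.54 to 1.46. A difference in response between stigma and ovary was thus not shown for the pollen allergen type genes, and the intervals are wide.

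Before pollination all 3 genes were already higher in the stigma than in the ovary, a comparison in which 32.8% of probe sets were called, 19.7% higher and 13.1% lower. In unpollinated stigma EXPB3 averaged 15.2 ± 6.26 (SD, n = 3), against 1.56 ± 0.201 (SD, n = 3) in unpollinated ovary, a 9.28-fold difference (log2 3.21 ± 0.31; limma, adjusted p = 3.89e-07). The EXPB9 difference was 11.1-fold (log2 3.48 ± 0.72; limma, adjusted p = 0.00123). For both genes every stigma array was above every ovary array. EXPB10 averaged 0.419 ± 0.146 in unpollinated stigma and 0.151 ± 0.0577 in unpollinated ovary (SD, n = 3 each), 2.45-fold with 1 ovary array at the floor (limma, adjusted p = 0.0126). The EXPB10 call ended without unpollinated stigma replicate 2 (1.07) or without unpollinated ovary replicate 1 (1.12).

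At 5 min the stigma was again above the ovary for all 3 genes, where 35% of probe sets were called, 20.7% higher and 14.3% lower. The EXPB10 difference was 2.30 ± 0.41 (log2, SE), 4.93-fold (limma, adjusted p = 0.00046), and was 1.84 and 2.76, still called, with 5-min stigma replicate 1 or 2 left out. The EXPB9 difference was 2.51 ± 0.80 (log2, SE), 5.68-fold (limma, adjusted p = 0.0234). Its call ended on leaving out either 5-min stigma array (2.47 and 2.54) or ovary replicate 1 (2.35) or 3 (2.27). The EXPB3 difference was 1.07 ± 0.35 (log2, SE; adjusted p = 0.0248 by limma), with overlapping groups, was 1.64 without 5-min stigma replicate 2, and lost its call without 5-min stigma replicate 1 (0.50) or without 5-min ovary replicate 1 (0.81) or 2 (1.03).

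In whole pistils, EXPB9 stayed above the unpollinated ovary at all 3 stages. It read 10.9, 2.41 and 4.25 at 15 to 25 min, 15.5, 19.5 and 1.46 at 40 to 50 min, and 10.1, 11.3 and 13.2 at 5 to 7 h. The spread between replicates was wide at the first 2 stages and narrow at the last. Whole pistils also hold stigma, where EXPB9 was 11.1-fold above the ovary before pollination. Against unpollinated ovary EXPB9 in whole pistils was 15.7-fold, 24.8-fold and 37.5-fold higher at the 3 stages in that order (log2 3.97, 4.63 and 5.23). The adjusted p by limma was 0.00139, 0.000477 and 3.55e-05. At 15 to 25 min 15.7% of probe sets were called (8.66% higher, 7.07% lower), at 40 to 50 min 10.9% (6.02% higher, 4.92% lower) and at 5 to 7 h 24.8% (13.2% higher, 11.7% lower). The value at 40 to 50 min rested on single arrays: the log2 change was 5.83 without replicate 3 and 3.96 without replicate 2. At 15 to 25 min it was 3.39 without replicate 1.

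Against unpollinated stigma EXPB9 was not called at any of the 3 stages. The changes were 0.50 ± 0.72, 1.16 ± 0.72 and 1.75 ± 0.72 (log2, SE; adjusted p = 0.599, 0.221 and 0.0501 by limma). In these comparisons 32.9% of probe sets were called at 15 to 25 min (11.8% higher, 21.1% lower), 31.2% at 40 to 50 min (10.9% higher, 20.3% lower) and 50.8% at 5 to 7 h (18.4% higher, 32.4% lower). All 3 pistil arrays at 5 to 7 h were above the unpollinated stigma arrays, whereas the earlier stages overlapped with them. Without the 40 to 50 min replicate 3 the change at that stage was 2.35 and was called.

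EXPB10 in whole pistils was dim, with group means above 42.5% to 53% of probe sets. It read 0.265, 0.185 and 0.205 at 15 to 25 min, 0.401, 0.305 and 0.121 at 40 to 50 min, and 0.132, 0.236 and 0.172 at 5 to 7 h. The values at 5 to 7 h were under their array medians on all 3 arrays and below all those of unpollinated stigma. Against unpollinated stigma the change was -0.89 and -0.68 at the first 2 stages, neither called (limma, adjusted p = 0.0727 and 0.167), and -1.19 ± 0.37 at 5 to 7 h (limma, adjusted p = 0.0133), among 32.4% of probe sets called lower. That call ended without unpollinated stigma replicate 2 (-0.96) or without 5 to 7 h replicate 1 (-0.99), and under quantile normalization (-0.87) or median centring (-0.81). Against unpollinated ovary no stage was called (log2 0.40, 0.62 and 0.10).

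EXPB3 in whole pistils lay between the 2 unpollinated tissues. It read 3.48, 2.58 and 2.75 at 15 to 25 min, 2.78, 2.28 and 3.18 at 40 to 50 min, and 4.57, 3.57 and 4.21 at 5 to 7 h. These are below every unpollinated stigma array and above every unpollinated ovary array. Against unpollinated stigma EXPB3 was lower at each stage, by log2 -2.31, -2.41 and -1.82 (limma, adjusted p = 2.45e-05, 1.42e-05 and 0.000131), where 21.1%, 20.3% and 32.4% of probe sets were called lower. Against unpollinated ovary it was higher at 5 to 7 h (log2 1.40 ± 0.31, 2.64-fold; limma, adjusted p = 0.00271), and at the earlier stages the differences of 0.91 and 0.81 were not called (limma, adjusted p = 0.0561 and 0.106). Whole pistils hold stigma and ovary in shares that are not given, so a change had to be called against both unpollinated tissues in 1 direction to count as a change of the pistil. None of the 3 genes met that at any stage in the fit reported here, but EXPB9 missed it at 5 to 7 h only by its adjusted p of 0.0501 (limma) against unpollinated stigma, and under 5 of the 10 alternative settings it was higher than both tissues at that stage. Of all tested probe sets, 4.02% were higher and 1.98% lower than both tissues at 15 to 25 min, 2.52% higher and 1.45% lower at 40 to 50 min, and 8.61% higher and 7.41% lower at 5 to 7 h.

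Between the pistil stages no member was called. The later minus the earlier stage gave EXPB9 changes of 0.66 ± 0.72 (40 to 50 min minus 15 to 25 min), 0.59 ± 0.72 (5 to 7 h minus 40 to 50 min) and 1.25 ± 0.72 (5 to 7 h minus 15 to 25 min; log2, SE). In the first of these limma called 0% of probe sets, with 1033 at an unadjusted p under 0.05, in the second it called 18% (11.2% higher, 6.79% lower) and in the third 25.1% (14.2% higher, 10.9% lower). EXPB3 values at 5 to 7 h were above all those of both earlier stages, but the differences of 0.59 ± 0.31 and 0.49 ± 0.31 (log2, SE) missed the threshold (limma, adjusted p = 0.214 and 0.286). EXPB10 changed by 0.21, -0.52 and -0.30 in the same 3 comparisons, with overlapping groups.

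**Figure D3:**
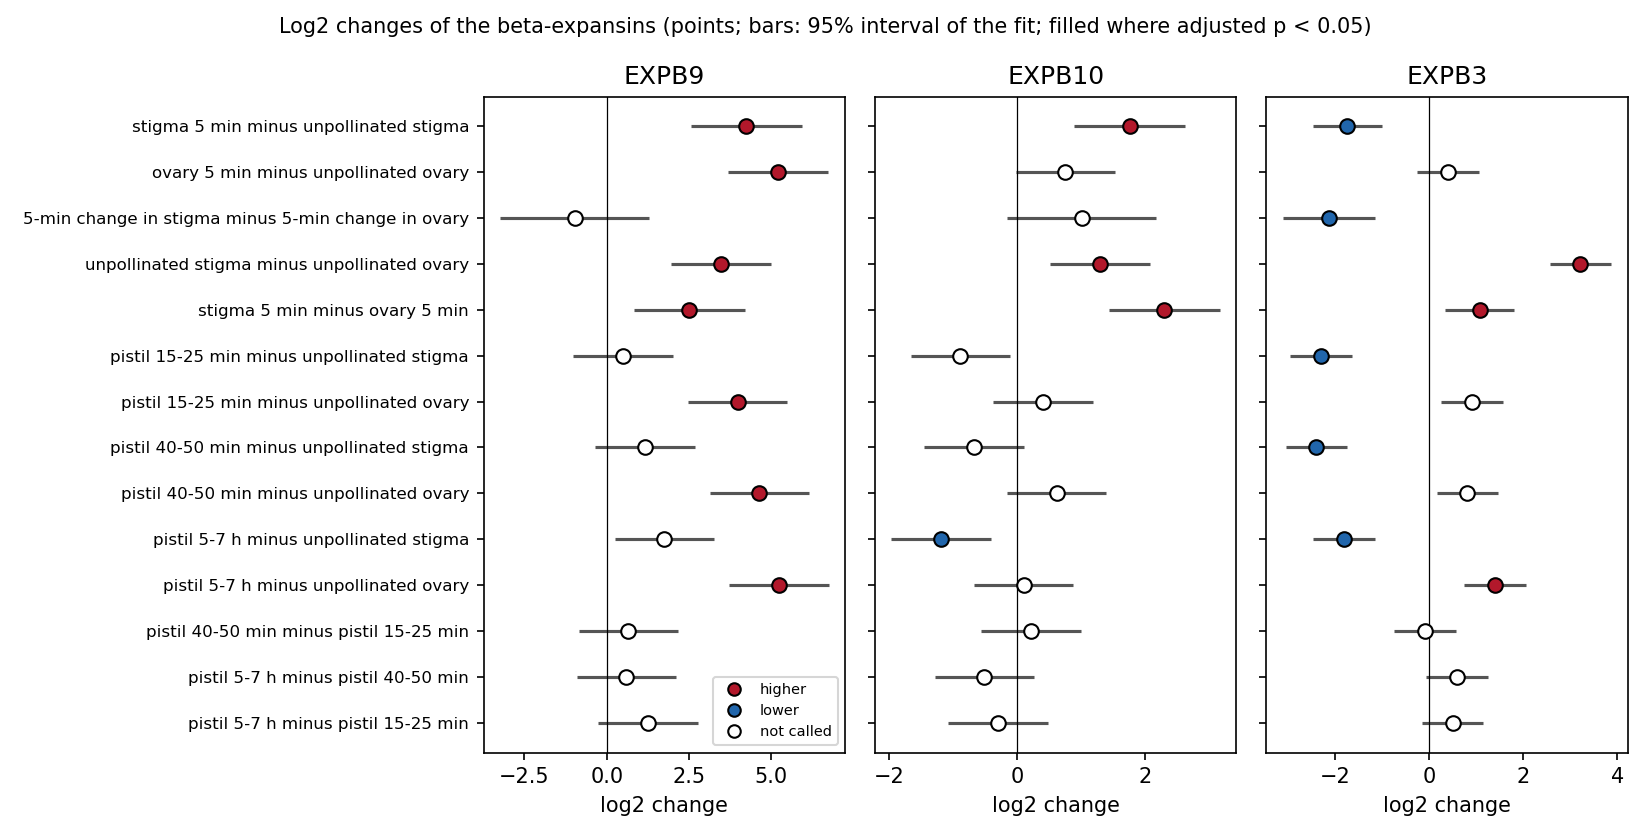
Log2 changes of EXPB9, EXPB10 and EXPB3 in 14 comparisons, with the 95% interval of the fit; filled points have an adjusted p under 0.05 (red higher, blue lower). EXPB9 is higher than in unpollinated ovary in every pollinated group that holds ovary, and EXPB3 is lower than in unpollinated stigma in every pollinated group that holds stigma.

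Ordered by group mean, EXPB9 ran from 64.2 in 5-min stigma through 12.3 in 5-min ovary, 12.1 in pistils at 40 to 50 min, 11.6 at 5 to 7 h, 5.84 at 15 to 25 min and 3.52 in unpollinated stigma to 0.332 in unpollinated ovary. The highest and the lowest group were separated from all others, and each pair of neighbours in between overlapped. EXPB10 ran from 1.42 in 5-min stigma to 0.151 in unpollinated ovary, and only 5-min stigma was separated from its neighbour. EXPB3 ran from 15.2 in unpollinated stigma through 4.64 in 5-min stigma, 4.12, 2.93 and 2.75 in pistils at 5 to 7 h, 15 to 25 min and 40 to 50 min, and 2.16 in 5-min ovary to 1.56 in unpollinated ovary. Unpollinated stigma was separated from 5-min stigma, and pistils at 5 to 7 h from those at 15 to 25 min without being called, while the other neighbours overlapped.

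The replicates of EXPB9 varied more than those of nearly all other probe sets. Its SD within groups was 1.02 on the log2 scale, larger than that of 99.4% of tested probe sets, whose median was 0.279. For EXPB10 it was 0.499 and for EXPB3 0.424, larger than 91% and 85.1% of tested probe sets. EXPB9 was steady in 5-min stigma and at 5 to 7 h, and most uneven in pistils at 15 to 25 and 40 to 50 min.

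The sugar exporter gene SWEET5, written down as a pollen marker, varied with EXPB9 array by array. The marker lists were written with earlier results of these data known. SWEET5 read 23.6 and 16.5 in 5-min stigma, against 0.931, 1.23 and 0.335 in unpollinated stigma. In pistils it read 2.55, 0.700 and 1.21 at 15 to 25 min and 4.05, 4.06 and 0.478 at 40 to 50 min. The arrays with low EXPB9 at these stages were those with low SWEET5. Of 26 pollen and sperm names only 3 had a usable probe set: SWEET5, INV4, a cell wall invertase gene, and HXK5, a hexokinase gene whose name a second gene shares. The listed name GT1 matched a glutelin gene and was not counted. INV4 stayed between 0.0802 and 0.401 on all 20 arrays, and HXK5 between 2.28 and 6.24, and none of the 3 was listed at 0. At 15 to 25 min INV4 read 0.1435, 0.2037 and 0.2211, lowest on replicate 1, where EXPB9 was highest. HXK5 read 4.945, 4.487 and 3.666 at that stage, and its lowest array was not that of EXPB9. At 40 to 50 min INV4 read 0.1427, 0.2533 and 0.1915. HXK5 then read 4.105, 4.713 and 3.239, lowest on replicate 3 as EXPB9 was. Their summed level was 21.7 to 29.9 in 5-min stigma and 4.51 to 7.45 in unpollinated stigma. It was 5.97 to 9.85 in 5-min ovary and 2.67 to 3.44 in unpollinated ovary. In pistils it was 5.1 to 7.64 at 15 to 25 min and 3.91 to 9.02 at 40 to 50 min. At 5 to 7 h it was 6.61 to 6.75 there. Most of the sum was SWEET5 in 5-min stigma and HXK5 in the unpollinated tissues. Of the anther wall and tapetum list 6 of 7 genes had a probe set, with a summed level of 3.31 to 3.71 in 5-min stigma and 2.55 to 3.67 in unpollinated stigma, and of 2.2 to 2.47 in 5-min ovary and 1.9 to 2.11 in unpollinated ovary. Most of that sum was GAMYB in all of these groups, so it does not speak for each gene. GAMYB read 2.157 to 2.721 in 5-min stigma and 1.525 to 2.533 in unpollinated stigma. The part of pollen or other tissue in the EXPB9 values was not tested.

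Likeness to each gene was described by Pearson's r of log2 values over the 20 arrays, ranked over 2216 genes with a symbol. The arrays share groups and samples, so r carries no p. For EXPB9 the 5 most like genes were OsSWEET5 (r = 0.98), the alpha-expansin gene EXPA32 (0.957), the calcium-dependent kinase gene CPK29 (0.957), NifU1 (0.956) and CIPK30 (0.95), the gene of a kinase that binds calcineurin B-like calcium sensors. The median r to EXPB9 over all 2216 genes was 0.071, and 10 genes exceeded 0.9. For EXPB10 they were VLN4, of the actin-bundling villins (0.937), ADF-6, of the actin-depolymerizing factors (0.93), AT1 (0.914), ILL2 (0.906) and OsSPPL3 (0.893), against a median of 0.187. For EXPB3 they were GF14E, a 14-3-3 gene (0.943), GL2-6 (0.937), the malic enzyme gene NADP-ME2 (0.928), Melibiase (0.927) and the NADPH oxidase gene OsrbohB (0.919), against a median of 0.174. The 3 lists share no gene. By rank, Spearman's rho ran from 0.962 to 0.995 in the EXPB9 list, 0.738 to 0.917 in the EXPB10 list and 0.859 to 0.916 in the EXPB3 list. The lowest was that of AT1, which read 0.6003 and 0.4438 in 5-min stigma and 0.1006 to 0.2339 on all other arrays. Among the members r was 0.64 for EXPB9 with EXPB10, 0.38 for EXPB10 with EXPB3 and 0.204 for EXPB9 with EXPB3.

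**Figure D4:**
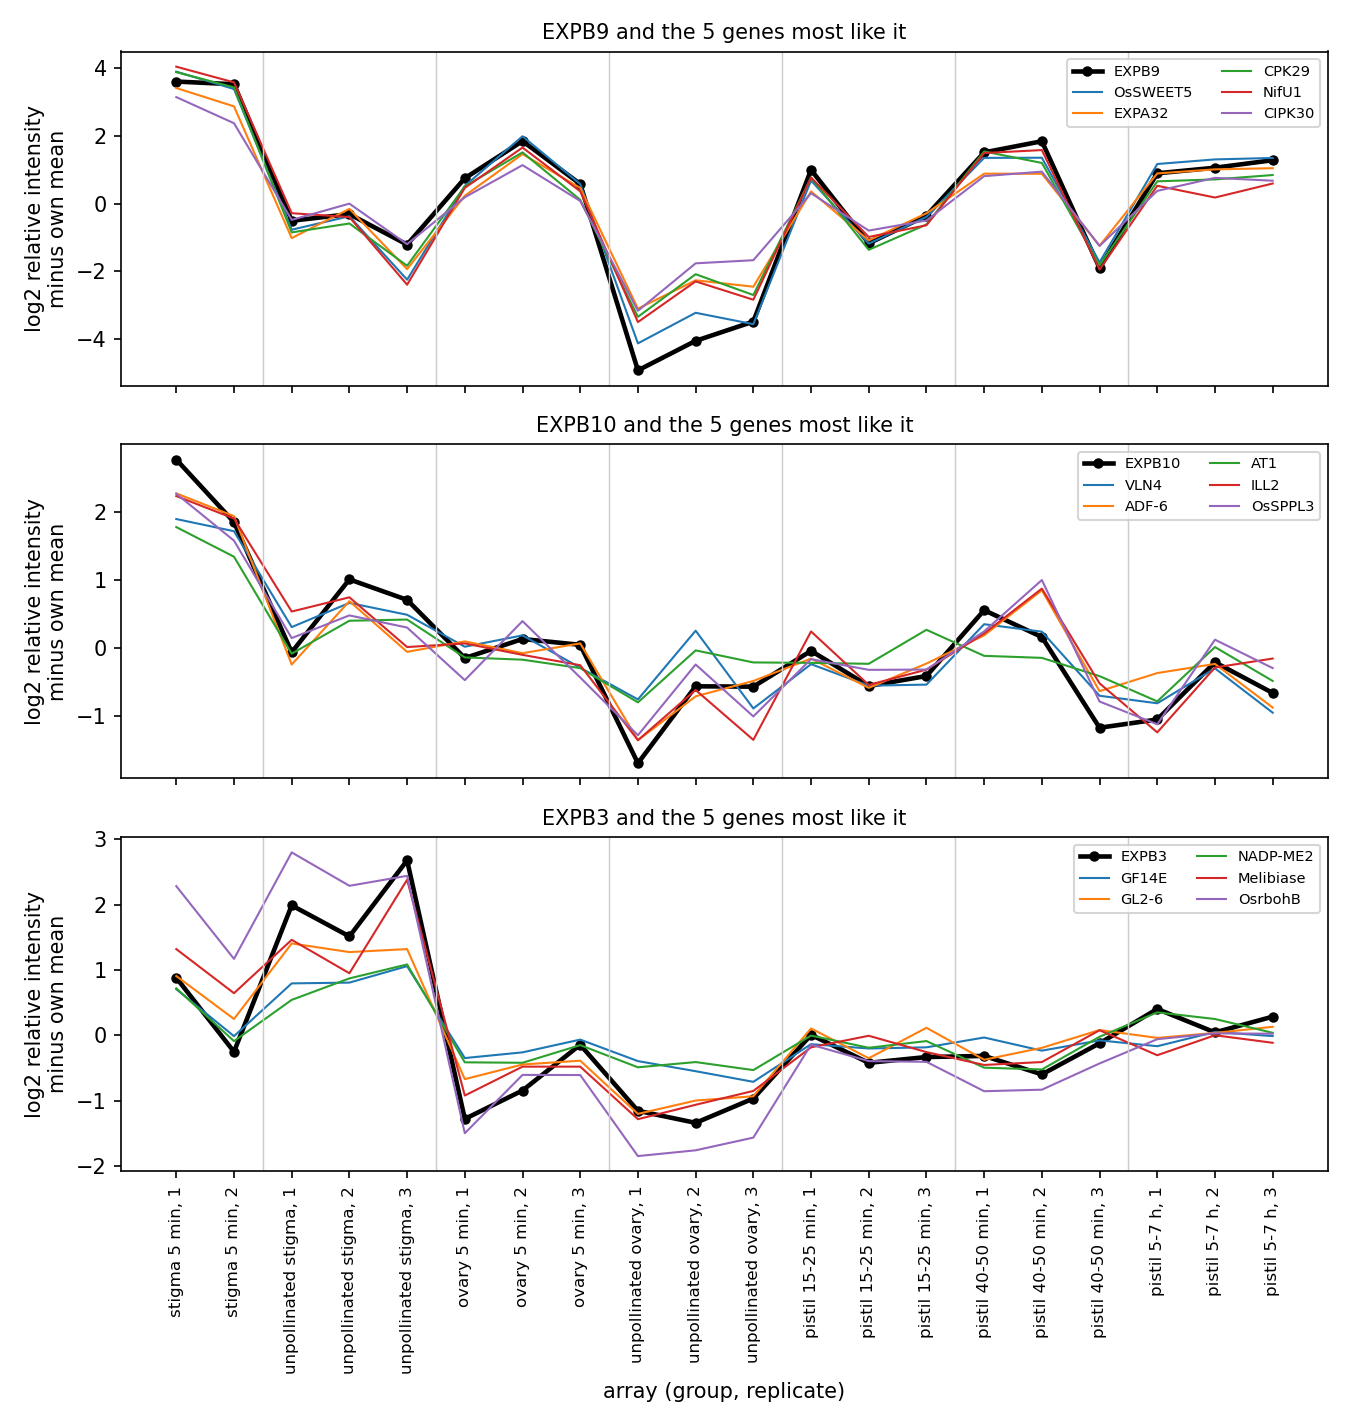
Log2 relative intensity minus the gene's own mean on the 20 arrays (group and replicate along the axis) for each beta-expansin (black) and the 5 genes with the highest Pearson r to it. The low EXPB9 value of pistil 40 to 50 min replicate 3 is shared by all 5 genes of its panel. They were picked by r over these same arrays, so the choice itself favours this agreement.

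At 5 min the log2 changes of the other 7 tested beta-expansins lay between -0.94 and 0.85 in the stigma and between -1.03 and 0.85 in the ovary, all smaller in size than the change of EXPB9, while in the ovary some were as large as the uncalled changes of EXPB10 and EXPB3. In 5-min stigma 1 was higher than in unpollinated stigma and none was lower (median log2 change 0.27, against -0.02 over all tested probe sets, of which 8.61% were called higher and 13.4% lower). The one was EXPB2, dim at 0.407 in 5-min stigma and 0.224 in unpollinated stigma (log2 0.85 ± 0.26; limma, adjusted p = 0.0279), and it lost its call without 5-min stigma replicate 2 (0.58) or unpollinated stigma replicate 1 (0.74) or 2 (0.84). In 5-min ovary 1 was lower than in unpollinated ovary and none was higher (median 0.20, against -0.06 over all tested probe sets, of which 3.88% were called higher and 2.02% lower). Counts of 1 in 7 say little against these shares. That was EXPB4, at 20.2 ± 1.24 in 5-min ovary and 34.7 ± 7.44 in unpollinated ovary (SD, n = 3 each; log2 -0.76; limma, adjusted p = 0.0133), a call lost without unpollinated ovary replicate 3 (-0.59) or 5-min ovary replicate 1 (-0.71) or 3 (-0.77). The suffix of the EXPB4 probe set marks a possible match to more than 1 gene. EXPB8, EXPB11 and EXPB17 were not called in either tissue, and EXPB17's 2 probe sets disagreed in sign in the stigma (-0.56 and 0.25).

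EXPB3 is one of 4 neighbouring protein-coding genes on chromosome 10, in the order EXPB6, EXPB2, EXPB3 and EXPB4, by the RefSeq annotation of assembly ASM3414082v1. EXPB9 lies elsewhere on chromosome 10 and EXPB10 on chromosome 3, both with no other beta-expansin within 3 genes. Of these neighbours EXPB6 was most like EXPB3 (r = 0.858 over the 20 arrays), against 0.448 for EXPB4 and 0.136 for EXPB2. EXPB6 was 5.14-fold higher in unpollinated stigma than in unpollinated ovary (limma, adjusted p = 1.07e-05). Its changes at 5 min were -0.94 ± 0.34 in the stigma and 0.85 ± 0.30 in the ovary (log2, SE), and neither was called (limma, adjusted p = 0.0559 and 0.109), and the stigma change was -0.77 without 5-min stigma replicate 2. Whether probes of these related genes cross-hybridise was not tested. EXPB7 had the opposite tissue pattern to EXPB3 (r = -0.765): it was 0.244 ± 0.0244 in unpollinated stigma and 1.32 ± 0.189 in unpollinated ovary (SD, n = 3 each), a log2 difference of -2.43 (limma, adjusted p = 8.34e-07), and was called in neither tissue at 5 min.

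**Figure D5:**
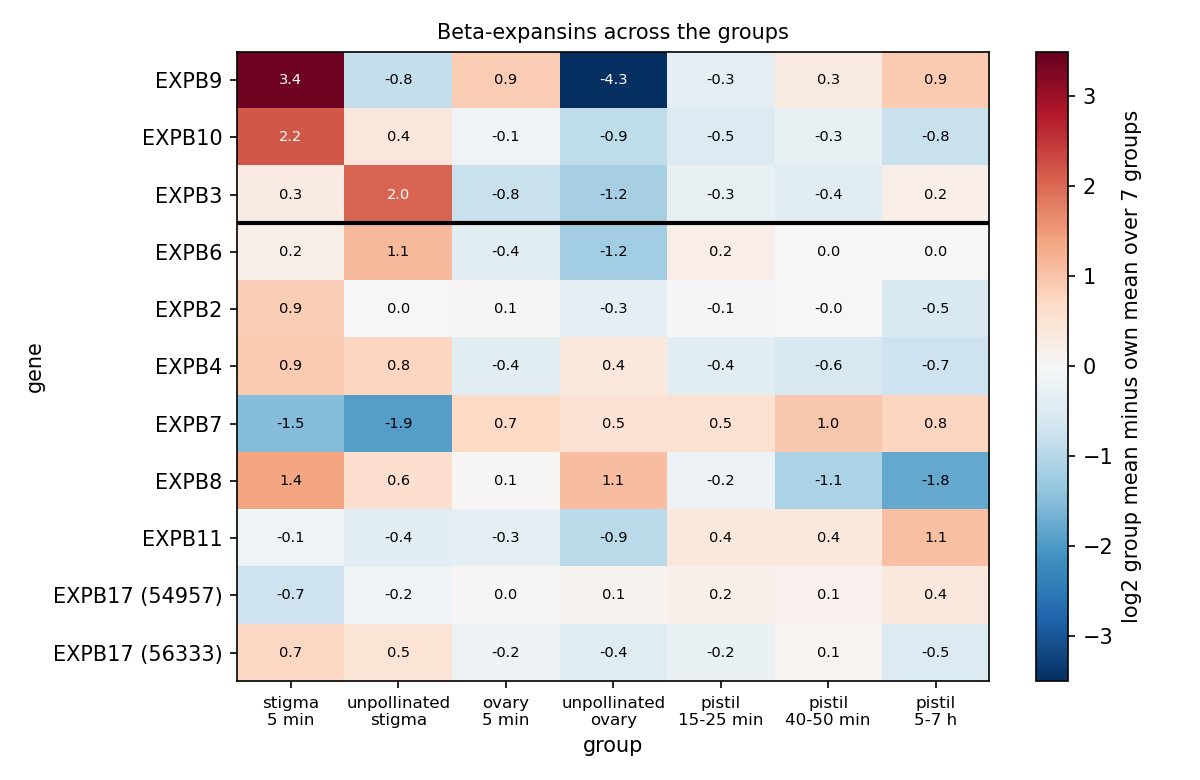
Group means of log2 relative intensity minus the probe set's own mean over the 7 groups for the 3 members (above the line) and the other tested beta-expansins; EXPB17 has 2 probe sets, and colours saturate at the ends of the scale. EXPB9 spans the widest range of the genes shown, and EXPB3 and EXPB6 are both highest in unpollinated stigma and lowest in unpollinated ovary.

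Over the whole superfamily, 22 of the 26 other genes were tested, each by its brightest probe set. In 5-min stigma 7 were higher and 1 was lower than in unpollinated stigma (median log2 change 0.34), and in 5-min ovary 3 were higher and 1 was lower than in unpollinated ovary (median 0.17). Over the whole table the shares called were 8.61% up and 13.4% down in 5-min stigma, and 3.88% up and 2.02% down in 5-min ovary. The largest rise was that of EXPA32, 18.1-fold in the stigma and 8.82-fold in the ovary (limma, adjusted p = 9.59e-05 and 0.00152), followed by EXPA29 at 6.09-fold in the stigma (limma, adjusted p = 0.000186). With any 1 of the 5 stigma arrays left out both stigma rises were called, at log2 3.73 to 4.61 for EXPA32 and 2.32 to 2.95 for EXPA29. EXPA29 rose 2.6-fold in the ovary, a call that ended without unpollinated ovary replicate 2 (1.15) or 3 (1.33) or 5-min ovary replicate 1 (1.04). The expansin-like gene EXLA4 fell by 1.37 in the stigma on the log2 scale (limma, adjusted p = 0.00254), as EXPB3 did, and lost its call without 5-min stigma replicate 2 (-0.89). Of the superfamily genes that are not beta-expansins, EXPA7 had the next lowest change, -0.64, which was not called and was -0.19 without 5-min stigma replicate 2.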

How the data were processed

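The deposited values are linear relative intensities for 57381 probe sets on 20 arrays. GCOS 1.3 was used by the authors, per the submitters' processing notes. From the values, each array's 75th percentile is 1; the step behind this is not stated in the sources used here. All columns were matched to samples (0 unmapped).

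The 187 control probe sets were set aside. A floor of 0.128, the table's 20th percentile, was put under low values before log2. The 35470 probe sets that exceeded the median of the array on 2 or more arrays were tested. A model with 1 mean for each of the 7 groups was fitted by limma 3.58.1 (R 4.3.3) with a variance trend (13 residual degrees of freedom), and p-values were adjusted within each comparison over all tested probe sets. Fold changes are ratios of geometric means after the floor. The steps were tested on simulated data.

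Genes were named through the platform's annotation and RefSeq: 22436 probe sets had 1 gene, 95 several and 34850 none. Named are the 3 members, all other beta-expansins, the 2 other expansins with the largest rise and the 2 with the largest fall in 5-min stigma, and the 5 genes most like each member. The members and lists were chosen with earlier results of these data known.

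Alternatives were 3 other normalizations, 2 filters, 2 floors, variances without a trend, fitting the compared groups alone, blocking on the replicate number, and leaving out each array. Same-numbered arrays of different groups deviated from their group means with r of -0.259 to 0.425 (median 0.048 over 57 pairs). Differently numbered pairs had a median of -0.043, and 14 of 20 arrays correlated best with their own number. These values do not settle whether the numbers pair samples. The main fit did not pair them, and the replicate block was run as an alternative.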

Additional observations from a re-analysis of the deposited data

Results flagged for a closer look

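Among EXPB9, EXPB10, EXPB3 and the other named expansins, the difference between the 5-min change in the stigma and that in the ovary was called for EXPB3 (-2.14 on the log2 scale) and for EXLA4 (-1.73 on the log2 scale; limma, adjusted p = 0.0285 and 0.0295). Both genes were lower in 5-min stigma than in unpollinated stigma and were not called in the ovary. EXLA4 was named for its fall in 5-min stigma. That fall is part of the difference, so the choice of the gene favoured this call. The EXLA4 difference was not recomputed under the alternative settings or with arrays left out. For both, the fall in the stigma lost its call without 5-min stigma replicate 2.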

How the results depend on the processing

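All values here are log2 changes by limma, and the cause of a lost or gained call was not tested. The EXPB9 rises at 5 min in stigma and ovary kept their calls under all 10 alternative settings and without each array. So did the higher EXPB9 in pistils than in unpollinated ovary, and the EXPB3 differences of pistils from unpollinated stigma and between the unpollinated tissues. EXPB9 in 5-min stigma minus 5-min ovary lost its call under quantile normalization (2.01) and median centring (2.10). EXPB9 at 5 to 7 h minus unpollinated stigma gained one under median centring (2.13), scaling on 9103 bright probe sets (1.95), the higher floor, the replicate block and the fit of only the groups compared (1.75 each). EXPB10 at 5 to 7 h minus unpollinated stigma lost its call under quantile normalization (-0.87) and centring (-0.81), and at 15 to 25 min it gained one with the higher floor (-0.85). EXPB3 at 5-min stigma minus 5-min ovary lost its call under centring (0.66), and its interaction under centring (-2.23) and with no filter (-2.14). EXPB3 in pistils minus unpollinated ovary gained calls at 15 to 25 min under quantile normalization (0.94), bright-probe scaling (0.93), the stricter filter and the replicate block (0.91 each), and at 40 to 50 min under quantile normalization (0.87) and the replicate block (0.81). With only the groups compared, calls ended for EXPB10 (1.76) and EXPB3 (-1.75) in the stigma, the EXPB3 interaction (-2.14) and EXPB3 in 5-min stigma minus 5-min ovary (1.07). Calls were then gained for EXPB3 against unpollinated ovary at 15 to 25 min (0.91) and 40 to 50 min (0.81) and for 5 to 7 h minus 40 to 50 min (0.59) and minus 15 to 25 min (0.49). The replicate numbers were not taken to pair the samples. Same-numbered arrays correlated at -0.259 to 0.425 (median 0.048), and differently numbered pairs had a median of -0.043. But 14 of 20 arrays correlated best with their own number, a hint from the data and not the design. The replicate block changed no other call of the 3 genes. In 5-min stigma minus unpollinated stigma the median over all probe sets shifted by -0.14 under median centring and by 0.23 under bright-probe scaling, and centring shifted it by up to 0.38 in pistils minus unpollinated stigma and by -0.41 in 5-min stigma minus 5-min ovary. Calls over all probe sets moved too: 3054 higher and 4756 lower in 5-min stigma became 2081 and 2844 under centring, 1189 and 81 with only the groups compared and 1803 and 1130 without 5-min stigma replicate 2. In 5-min ovary 1375 higher and 716 lower became 935 and 256 under centring and 717 and 150 with only the groups compared. The 6990 higher and 4643 lower in unpollinated stigma minus unpollinated ovary became 2725 and 6471 under centring, and 7358 and 5055 in 5-min stigma minus 5-min ovary became 2491 and 7615.

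With each array left out in turn, EXPB9 ranged from 2.27 to 2.90 in 5-min stigma minus 5-min ovary, from -0.09 to 1.0 at 15 to 25 min and 0.48 to 2.35 at 40 to 50 min minus unpollinated stigma, and between pistil stages from -0.02 to 1.85 (40 to 50 min minus 15 to 25 min) and -0.60 to 1.27 (5 to 7 h minus 40 to 50 min). EXPB10 ranged from 1.3 to 2.22 in 5-min stigma minus unpollinated stigma, 1.07 to 1.61 in unpollinated stigma minus unpollinated ovary, -1.20 to -0.66 at 15 to 25 min and -1.50 to -0.96 at 5 to 7 h minus unpollinated stigma, -0.12 to 0.30 at 5 to 7 h minus unpollinated ovary, and -0.12 to 0.70 at 40 to 50 min minus 15 to 25 min. EXPB3 ranged from -2.31 to -1.18 in 5-min stigma minus unpollinated stigma, -2.71 to -1.58 in the interaction, 0.50 to 1.64 in 5-min stigma minus 5-min ovary and -0.21 to 0.03 at 40 to 50 min minus 15 to 25 min. Among uncalled changes of other beta-expansins, signs turned for EXPB7 (-0.25 to 1.10) and EXPB4 (-0.01 to 0.30) in the stigma, and for EXPB17 in the stigma (-0.30 to 0.80) and, by probe set, in the ovary (-0.21 to 0.07 and -0.08 to 0.63). Where an array's removal left 5-min stigma with 1 array, that array was assumed to vary like the other groups. Outside 5-min stigma the group means of EXPB10 exceeded 30.4% to 60.8% of probe sets, so those levels rest on weak signal.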

Other observations

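Some of the other beta-expansins differed from both unpollinated tissues in whole pistils. Of all tested probe sets 4.02% were higher and 1.98% lower than both at 15 to 25 min, 2.52% and 1.45% at 40 to 50 min, and 8.61% and 7.41% at 5 to 7 h. EXPB11 was higher than both at each stage, by log2 0.78, 0.78 and 1.46 against unpollinated stigma and 1.32, 1.32 and 2.00 against unpollinated ovary (stages in time order). Its mean reached 1.09 ± 0.121 at 5 to 7 h (SD, n = 3). EXPB4 was lower than both at each stage, by log2 -1.17, -1.32 and -1.48 against unpollinated stigma and -0.78, -0.93 and -1.10 against unpollinated ovary. EXPB8 was lower than both at 40 to 50 min (-1.69 and -2.19) and at 5 to 7 h (-2.38 and -2.89), and was the only one of the 7 other tested beta-expansins called between pistil stages, by -1.61 in 5 to 7 h minus 15 to 25 min. All of these had an adjusted p under 0.05 by limma, and they were not recomputed under the alternative settings.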
